A study of Mus musculus with 24 samples.

Results

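Of the 13803 genes measured in embryonic mouse kidney stroma, 5 are described here: Lef1, Tcf7, Tcf7l1 and Tcf7l2, which are the TCF/LEF transcription factors, and Sp5, a zinc-finger factor and Wnt target gene. They were taken by name, and each had a row in the deposited table. The study measured RNA by sequencing in 24 libraries, which fall into 8 groups of 3. The first mutant line, beta-catSD on a C57BL/6 background, has stroma deficient in beta-catenin and was set against wild-type C57BL/6 stroma. The second, beta-catSO on a CD1 background, has stabilised beta-catenin and was set against wild-type CD1 stroma. Each genotype was sampled at stages E12.5 and E13.5, in embryonic days. Cells of all groups, wild-type ones included, carried FoxD1Cre-eGFP, so Cre acted and eGFP marked cells where Foxd1 is or was active. Kidneys were dissociated with collagenase and the marked cells were collected by fluorescence-based sorting (FACS). The labels do not name the deleted or stabilised alleles, and mutant line and strain go together. The study record speaks of 3 kidneys per genotype, but the labels leave unsaid whether each library is a kidney or animal of its own. The p-values therefore measure the spread between libraries, which may be technical.

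TCF/LEF proteins bind DNA through an HMG box and carry the transcriptional output of canonical Wnt signalling. When beta-catenin accumulates it binds their N terminus and recruits activators such as BCL9 and Pygopus, and without it they are held in a repressed state by Groucho/TLE co-repressors. LEF1 and TCF7 mostly act as activators and their genes are themselves Wnt targets in many tissues, TCF7L1 acts mostly as a repressor, and TCF7L2 can do either. SP5 belongs to the Sp family, which binds GC-rich promoter boxes, and Sp5 is induced by Wnt signals in many mouse embryonic tissues. In the kidney, Foxd1-positive stroma surrounds the nephron progenitors and gives rise to interstitium, pericytes and mesangium.

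On GRCm38 (GENCODE), Lef1 (ENSMUSG00000027985.14) lies on the plus strand at chr3:131110471-131224356 and Sp5 (ENSMUSG00000075304.2) on the plus strand at chr2:70474923-70477729. Tcf7 (ENSMUSG00000000782.15) lies on the minus strand at chr11:52252371-52283014, Tcf7l1 (ENSMUSG00000055799.13) on the minus strand at chr6:72626378-72789254 and Tcf7l2 (ENSMUSG00000024985.19) on the plus strand at chr19:55741820-55933654. Lef1 and Tcf7 each overlap 1 annotated gene on the other strand and Tcf7l1 overlaps 3. On the same strand Lef1, Tcf7 and Tcf7l2 each overlap 1 and Tcf7l1 overlaps 3, while Sp5 overlaps none on either strand. Whether the reads were counted by strand is not given in the sources used here, and counting by strand would not separate same-strand partners. Reads of an overlapping partner therefore cannot be told apart from those of the member. The 250 bases before 4 transcription starts (RefSeq, GRCm38.p6) are printed 5′ to 3′ along the gene's strand. Lef1 and Sp5 were taken as genes that changed in both mutants, and Tcf7l1 as one that changed far less. Tcf7 also changed in both mutants, but its windows are not printed and their matches are counted below. Capitals mark CTTTGA or CTTTGT, the core letters of the DNA element that TCF/LEF proteins bind, found on either strand (on the other strand they read TCAAAG or ACAAAG).
Sp5, chr2:70474673-70474922 (plus strand): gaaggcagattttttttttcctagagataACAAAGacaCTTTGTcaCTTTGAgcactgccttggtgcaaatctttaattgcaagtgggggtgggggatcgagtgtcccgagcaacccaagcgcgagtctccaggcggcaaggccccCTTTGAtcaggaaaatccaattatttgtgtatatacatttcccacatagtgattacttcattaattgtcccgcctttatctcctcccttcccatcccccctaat
Lef1, start 1, chr3:131110047-131110296 (plus strand): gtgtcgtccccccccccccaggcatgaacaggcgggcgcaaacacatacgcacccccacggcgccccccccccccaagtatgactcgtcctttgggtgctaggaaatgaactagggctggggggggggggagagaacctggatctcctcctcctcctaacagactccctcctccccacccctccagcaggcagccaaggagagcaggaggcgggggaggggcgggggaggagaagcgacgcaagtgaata
Lef1, start 4, chr3:131156044-131156293 (plus strand): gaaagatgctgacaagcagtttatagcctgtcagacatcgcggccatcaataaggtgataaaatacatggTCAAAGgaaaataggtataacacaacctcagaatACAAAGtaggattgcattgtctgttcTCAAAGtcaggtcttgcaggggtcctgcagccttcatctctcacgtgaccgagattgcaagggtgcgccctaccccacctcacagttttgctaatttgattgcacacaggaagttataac
Tcf7l1, chr6:72789046-72789295 (minus strand): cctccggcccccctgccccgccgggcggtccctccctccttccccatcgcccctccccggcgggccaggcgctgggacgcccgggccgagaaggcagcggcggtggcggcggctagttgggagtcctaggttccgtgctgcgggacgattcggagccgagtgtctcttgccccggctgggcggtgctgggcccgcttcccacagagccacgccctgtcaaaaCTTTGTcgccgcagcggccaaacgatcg

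The Sp5 window held 4 matches, at 221, 212, 204 and 104 bases before the start, and 0.0944% of 32851 RefSeq windows of the same length held at least 4. Of the 4 Lef1 starts in RefSeq, the first 3 had 0 matches and start 4, the farthest inside the gene, had 3, at 180, 146 and 120 bases. At least 3 matches were present in 0.776% of all windows and at least 1 in 27.6%. The Tcf7l1 window held 1, at 28 bases. Of the other windows, both of Tcf7 held 0 and those of Tcf7l2 held 0 and 1. These are matches of letters and no binding was measured.

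The libraries held between 6184257 and 21168300 reads, recovered from the deposited values, and library pairs within a group had a Pearson r across genes of 0.927 to 0.978. Levels are given as log2 counts-per-million values (log2 CPM), and a gene is called changed where its p-value adjusted over all 13803 genes was below 0.05. The gene for beta-catenin, Ctnnb1, stood at 10.66, 10.47 and 10.36 log2 CPM in beta-catSD libraries at E12.5, against 10.85, 10.86 and 10.69 in wild-type libraries, a log2 change of -0.31 (adjusted p = 0.0133). At E13.5 it stood at 10.34, 10.36 and 10.38 in beta-catSD libraries, against 10.54, 10.52 and 10.51 in wild-type ones, a change of -0.16 (adjusted p = 0.205). The beta-catSD libraries were slightly lower at both stages, and a count over the whole gene does not show which exons remained. The E12.5 call was lost in the fit of the 12 libraries of that line and when any of 4 libraries was left out. In beta-catSO libraries Ctnnb1 stood at 10.61 to 10.68 at E12.5 and 10.41 to 10.45 at E13.5, against 10.74 to 10.77 and 10.47 to 10.57 in wild-type CD1 libraries, and neither change passed the test. Foxd1 fell in beta-catSO stroma, by 0.77 on the log2 scale at E12.5 (adjusted p = 0.00149) and by 1.26 at E13.5 (adjusted p = 1.77e-06), and changed by -0.01 and 0.11 in beta-catSD stroma with neither called. All 9 stromal markers were in the table, at a summed 7883 to 13151 CPM in every library. A wild-type CD1 library at E13.5, replicate 1, stood apart with 316 CPM of 9 ureteric bud markers, against 53.0 and 62.4 in the other two of its group, and with 737 CPM of 8 endothelial markers, against 37.8 and 74.8. That library also had 365 CPM of 6 nephron progenitor markers, against 101 and 109. It had 580 CPM of 6 measured pretubular aggregate and renal vesicle markers, against 332 and 381. A wild-type C57BL/6 library at E12.5, replicate 3, had 3728 CPM of 3 liver markers, against 0.581 and 1.47 in the others. The same 3 markers summed to 799 CPM in wild-type CD1 replicate 3 at E13.5, against 0.444 and 0.481 in the others, and in wild-type CD1 stroma at E12.5 to 179 to 193 CPM in all 3 libraries, where beta-catSO libraries had 0 to 0.301. The part of liver RNA in the results was not tested in these other libraries. Results that move without the ureteric bud-rich library and the one with 3728 CPM of liver markers, called here the libraries that stood apart, are given in both forms.

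Lef1, whose product is an activating partner of beta-catenin, fell in beta-catSD stroma and rose in beta-catSO stroma at both stages. At E12.5 it stood at 2.35, 2.59 and -0.07 log2 CPM in beta-catSD libraries, from 79, 49 and 6 reads, against 4.24, 4.10 and 3.78 in wild-type libraries, from 192, 206 and 168 reads. All beta-catSD libraries were below all wild-type ones, and the third was far below the other two. The log2 change was -2.42 (SE 0.42, 95% interval -3.30 to -1.54, adjusted p = 0.00293), or 5.35-fold lower, and without that library -1.57 (adjusted p = 0.00352). It was the only member called there, 1 of 5 lower, where 0.732% of all genes tested were called lower. In these sorted populations, fewer cells expressing a gene and less RNA per cell cannot be told apart.

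At E13.5 Lef1 had 0.62, 1.82 and 0.66 log2 CPM in beta-catSD libraries, against 5.11, 4.76 and 4.59 in wild-type libraries. The groups were far apart, with a log2 change of -3.79 (SE 0.42, adjusted p = 1.13e-05), 13.8-fold lower. Here 2 of 5 members, Lef1 and Tcf7, were called lower, beside 2.07% of all genes tested. In the beta-catSO line at E12.5, Lef1 had 7.36, 7.23 and 7.50 log2 CPM in mutant libraries, against 3.66, 4.04 and 3.85 in wild-type libraries, which is 11.4-fold higher (log2 change 3.51, SE 0.42, adjusted p = 5.93e-06). At E13.5 it had 7.66, 7.66 and 7.87 in beta-catSO libraries, against 3.90, 3.56 and 3.90 in wild-type ones, 15.4-fold higher (log2 change 3.95, adjusted p = 4.3e-07). The standard deviation (SD) of Lef1 over the 3 libraries was 0.14 and 0.12 in the beta-catSO groups, and 1.47 at E12.5 and 0.68 at E13.5 in the beta-catSD groups. In beta-catSO stroma 3 of 5 members (Lef1, Tcf7 and Sp5) were called higher at E12.5, beside 5.17% of all genes, and the same 3 at E13.5, beside 8.53%. Tcf7l1 was called lower at E13.5, beside 6.83%.

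Tcf7, the other factor of the pair that mostly activates, fell in beta-catSD stroma at E13.5 and rose in beta-catSO stroma at both stages. At E12.5 it had 2.68, 2.40 and 1.35 log2 CPM in beta-catSD libraries, against 3.18, 3.59 and 3.13 in wild-type libraries. The groups did not overlap, but the log2 change of -1.16 (SE 0.31) missed the threshold (adjusted p = 0.0558). It was -0.76 (adjusted p = 0.322) without beta-catSD replicate 3, the lowest library, and was called without replicate 1 (-1.42, adjusted p = 0.0172) and without both libraries that stood apart (-1.24, adjusted p = 0.0285). At E13.5 Tcf7 had 2.07, 2.68 and 1.75 in beta-catSD libraries, against 3.89, 4.18 and 4.23 in wild-type libraries, 3.82-fold lower (log2 change -1.93, SE 0.31, adjusted p = 0.000797). Every beta-catSD library was more than a log2 unit below every wild-type one. In the same beta-catSD libraries 6 nephron progenitor markers, none at 0 in a whole group, summed to 148 to 223 CPM at E12.5 and 207 to 250 at E13.5, against 87.3 to 97.7 and 111 to 123 in wild-type libraries. Of the 6 only Meox1 was called higher, at each stage (7.12 ± 0.28 log2 CPM in beta-catSD and 5.52 ± 0.12 in wild-type libraries at E12.5). Meox1 made up most of each beta-catSD sum, so the sums do not stand for the list as a whole. The median log2 change of the 6 was 0.75 at E12.5 and 0.31 at E13.5, while Itga8 was lower in every beta-catSD library than in any wild-type one of its stage. The part of these markers in the Lef1 and Tcf7 results was not tested.

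In beta-catSO stroma Tcf7 was at 6.64, 6.65 and 6.70 log2 CPM at E12.5, against 2.94, 2.23 and 2.71 in wild-type CD1 stroma. This is 16.5-fold higher (log2 change 4.04, SE 0.31, adjusted p = 5.18e-09), with mutant libraries nearly equal. At E13.5 it was at 6.82, 7.09 and 7.37 in beta-catSO libraries, against 4.61, 3.46 and 3.54 in wild-type libraries, 9.33-fold higher (log2 change 3.22, adjusted p = 8.01e-08). The highest wild-type value belongs to the library that stood apart in ureteric bud, endothelial, nephron progenitor and renal vesicle RNA. Without both libraries that stood apart the change was 3.59. Lef1 and Tcf7 are also genes of T lymphocytes. Of 8 lymphoid markers 3 were in the table (Rag1, Cd4 and Bcl11b, the other 5 having no row). Their sum was 20.0 to 30.8 CPM in beta-catSO libraries, against 7.02 to 10.7 in wild-type CD1 libraries. Bcl11b made up most of the beta-catSO sum and was the only 1 of the 3 called, higher at each stage. The median log2 change of the 3 was -0.15 at E12.5 and 1.21 at E13.5. The part of lymphoid RNA in the Lef1 and Tcf7 changes was not tested.

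**Figure D1:**
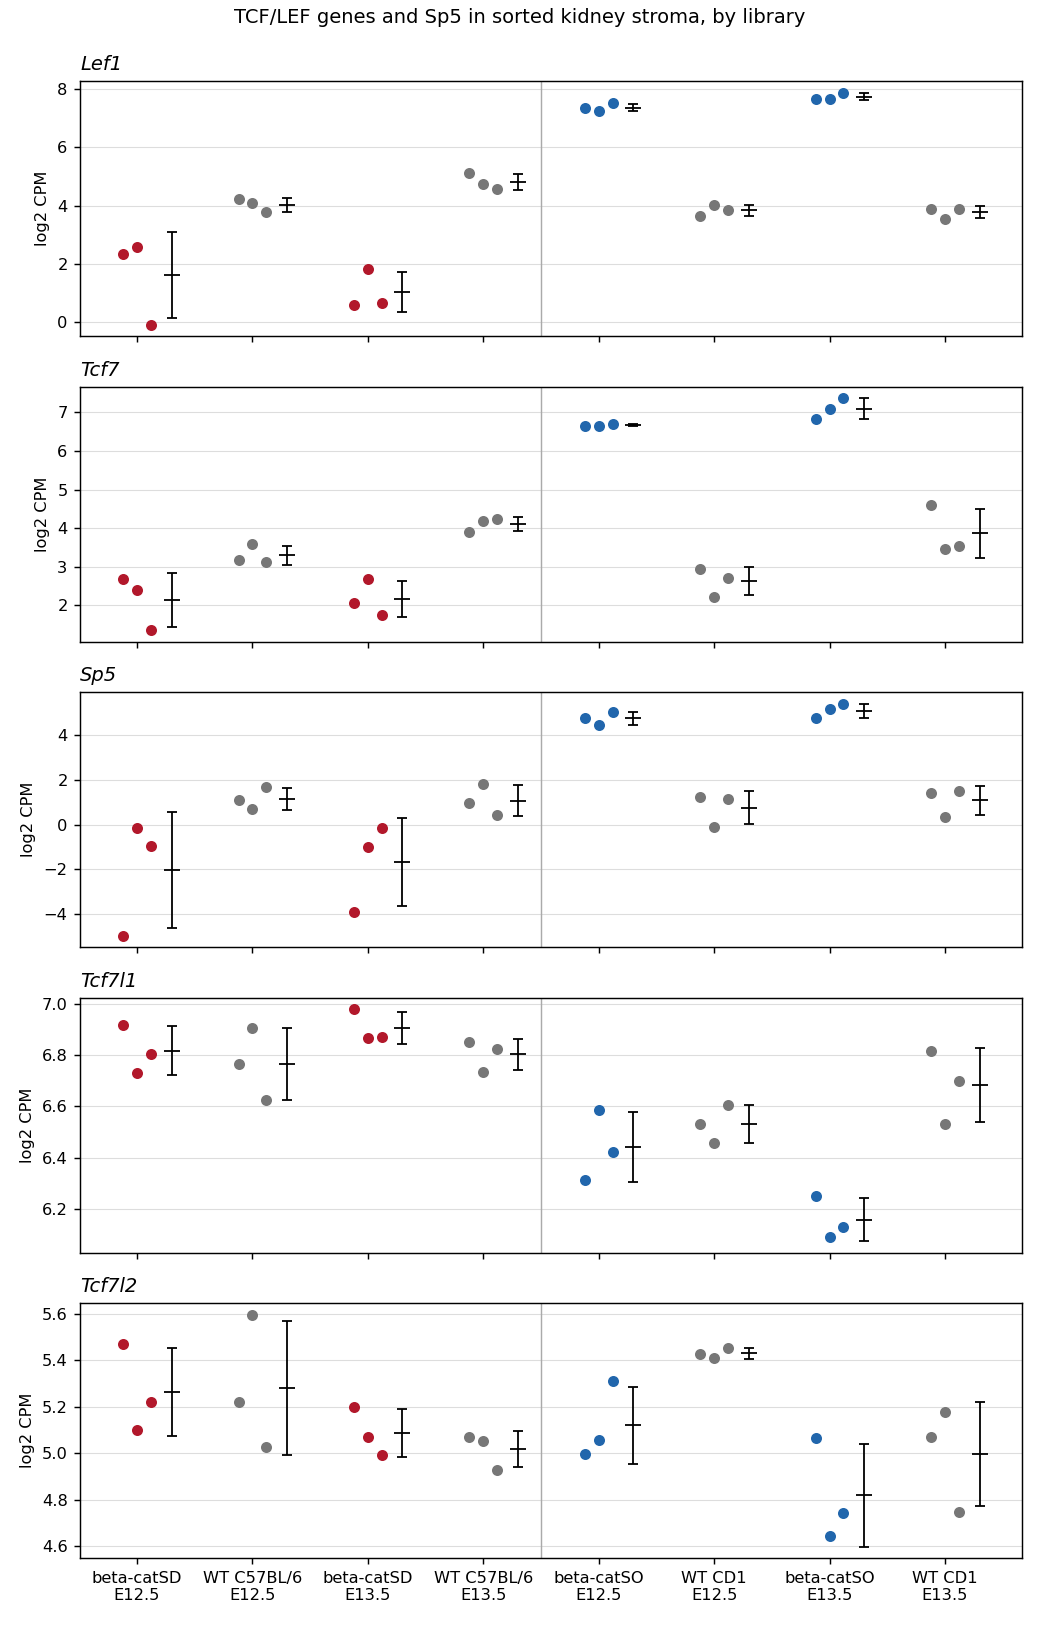
Level of each gene in log2 CPM (vertical axis, its own scale per gene), 1 point per library, with the mean and SD of the 3 libraries of a group as a bar to the right of the points. Lef1, Tcf7 and Sp5 sit lowest in beta-catSD groups and highest in beta-catSO groups, while Tcf7l1 stays between 6.09 and 6.98 log2 CPM and Tcf7l2 between 4.64 and 5.60.

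Sp5, a repressor of the Sp family in mouse embryonic stem cells and a widely used readout of Wnt activity, had the lowest level per length of the 5 genes in wild-type stroma. At E12.5 the beta-catSD libraries held 0, 7 and 3 Sp5 reads, which gives -4.96, -0.14 and -0.97 log2 CPM, against 21, 19 and 39 reads, or 1.08, 0.70 and 1.68 log2 CPM, in wild-type libraries. At E13.5 the beta-catSD libraries held 0, 3 and 6 reads (-3.91, -0.99 and -0.17 log2 CPM), against 13, 32 and 11 (0.95, 1.83 and 0.43 log2 CPM) in wild-type libraries. The mutant libraries lay below the wild-type ones at both stages, and a library with 0 reads allows up to 0.194 CPM at E12.5 and 0.399 CPM at E13.5 (3 reads of its total). In summed reads scaled by depth Sp5 was 7.02-fold lower in beta-catSD stroma at E12.5 (95% counting interval 3.62 to 15.2) and 5.49-fold lower at E13.5 (2.69 to 12.6). These intervals cover counting error only.

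The fitted log2 changes of Sp5, -3.17 (SE 0.90, adjusted p = 0.0722) and -2.76 (adjusted p = 0.1), did not pass within a stage. Their mean over the stages, -2.97 (SE 0.63), did (adjusted p = 0.00437), and with it 3 of 5 members (Lef1, Tcf7 and Sp5) were called lower over both stages, beside 3.71% of all genes. The E12.5 change depended on the libraries, at -1.70 (adjusted p = 0.281) without replicate 1, which has 0 reads, and -4.12 (adjusted p = 0.0293) without replicate 2. The RNA of other cells moved with these groups at E13.5: 8 macrophage markers summed to 12.4 to 38.1 CPM in beta-catSD libraries, against 153 to 261 in wild-type ones, all 8 called lower and none at 0 in a whole group. Of 8 endothelial markers 5 were called lower, and the 8 summed to 42.3 to 67.6 CPM in beta-catSD libraries, against 108 to 118 in wild-type ones. Emcn, one of the 8, went the other way without being called and made up most of each beta-catSD sum. It had 4.95, 4.73 and 5.53 log2 CPM in beta-catSD libraries, against 4.08, 3.73 and 4.34 in wild-type ones. With macrophage, endothelial and erythroid levels as covariates, the Sp5 change at E13.5 was -1.10 (adjusted p = 0.803) and its mean over stages -2.09 (adjusted p = 0.355). In the same fit Lef1 kept its calls, at -2.76 (adjusted p = 0.00765) at E12.5 and -4.55 (adjusted p = 0.0017) at E13.5, and so did Tcf7 at E13.5, at -2.22 (adjusted p = 0.0341). At E13.5 the mean macrophage level was 0.016 to 1.61 log2 CPM in beta-catSD libraries and 3.69 to 4.54 in wild-type ones. At E12.5 the mean erythroid level was -0.99 to 1.22 log2 CPM in beta-catSD libraries and 3.61 to 4.96 in wild-type ones. The groups did not overlap in these levels, so the covariate fits at both stages reach beyond levels that both groups share.

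In beta-catSO stroma Sp5 had 4.78, 4.44 and 5.01 log2 CPM at E12.5, from 169, 138 and 214 reads, against 1.23, -0.10 and 1.14 in wild-type CD1 libraries, from 22, 9 and 21 reads. At E13.5 it had 4.75, 5.14 and 5.36 in beta-catSO libraries, against 1.42, 0.33 and 1.48 in wild-type libraries. The mutant libraries were well above all wild-type libraries at both stages. Sp5 was 15.8-fold higher at E12.5 (log2 change 3.98, SE 0.90, adjusted p = 0.00575) and 16.1-fold higher at E13.5 (log2 change 4.01, adjusted p = 0.00296). The ratios of summed reads were 15.4 (95% counting interval 11.5 to 20.9) and 14.8 (11.7 to 18.9). In beta-catSO libraries the macrophage sum was 425 to 668 CPM at E12.5 and 373 to 909 CPM at E13.5, against 623 to 640 and 262 to 341 CPM in wild-type libraries. With the covariates the Sp5 changes were 3.52 (adjusted p = 0.0824) and 2.66 (adjusted p = 0.181), while their mean, 3.09, passed (adjusted p = 0.0323). Here too covariates lay apart. The mean erythroid level at E12.5 was 1.05 to 5.03 log2 CPM in beta-catSO libraries and 6.76 to 7.09 in wild-type ones. The mean macrophage level at E13.5 was 5.02 to 6.36 in beta-catSO libraries and 4.42 to 4.80 in wild-type ones. These fits also reach beyond levels that both groups share.

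Tcf7l1, the factor known mostly as a repressor, was not called in beta-catSD stroma and fell in beta-catSO stroma at E13.5. At E12.5 it had 6.92, 6.73 and 6.80 log2 CPM in beta-catSD libraries, against 6.77, 6.90 and 6.63 in wild-type libraries, overlapping groups with a log2 change of 0.05 (95% interval -0.13 to 0.23, adjusted p = 0.873). At E13.5 it had 6.98, 6.87 and 6.87 in beta-catSD libraries, against 6.85, 6.74 and 6.82 in wild-type ones. These did not overlap, but the change of 0.10 (95% interval -0.08 to 0.28) was not called (adjusted p = 0.674). In beta-catSO stroma at E12.5 it had 6.31, 6.59 and 6.42, against 6.53, 6.46 and 6.61 in wild-type stroma, a change of -0.09 (adjusted p = 0.624). At E13.5 it had 6.25, 6.09 and 6.13 in beta-catSO libraries, against 6.82, 6.53 and 6.70 in wild-type ones, all mutant libraries lower. The log2 change there was -0.52 (SE 0.09, 95% interval -0.70 to -0.34, adjusted p = 0.000139), or 1.44-fold lower, and it was -0.46 (adjusted p = 0.000892) without both libraries that stood apart. Over both stages Tcf7l1 changed by -0.31 in beta-catSO stroma (adjusted p = 0.000833), the only member of 5 called lower, beside 8.32% of all genes called lower, while 3 of 5 were called higher, beside 10.2%.

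Tcf7l2, which can activate or repress, was called in no comparison of genotypes with all libraries. It had 5.47, 5.10 and 5.22 log2 CPM in beta-catSD libraries at E12.5, against 5.22, 5.60 and 5.03 in wild-type libraries, and 5.20, 5.07 and 4.99 at E13.5, against 5.07, 5.05 and 4.93 in wild-type ones. The groups overlapped at both stages, with changes of -0.02 (95% interval -0.31 to 0.28) and 0.07 (-0.23 to 0.37). In beta-catSO libraries it had 5.00, 5.06 and 5.31 at E12.5, against 5.43, 5.41 and 5.45 in wild-type libraries, and 5.07, 4.64 and 4.74 at E13.5, against 5.07, 5.18 and 4.75 in wild-type ones. The mutant libraries were the lower ones at E12.5 only, with a change of -0.31 (95% interval -0.61 to -0.01, adjusted p = 0.215), and the change at E13.5 was -0.18 (adjusted p = 0.452). Over both stages it was -0.24 (adjusted p = 0.101), and it was called at -0.31 without beta-catSO E13.5 replicate 1 (adjusted p = 0.0413) or without wild-type CD1 E13.5 replicate 3 (adjusted p = 0.0407). These intervals leave room for changes of up to about 0.61 on the log2 scale, far smaller than those of Lef1, Tcf7 and Sp5.

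**Figure D2:**
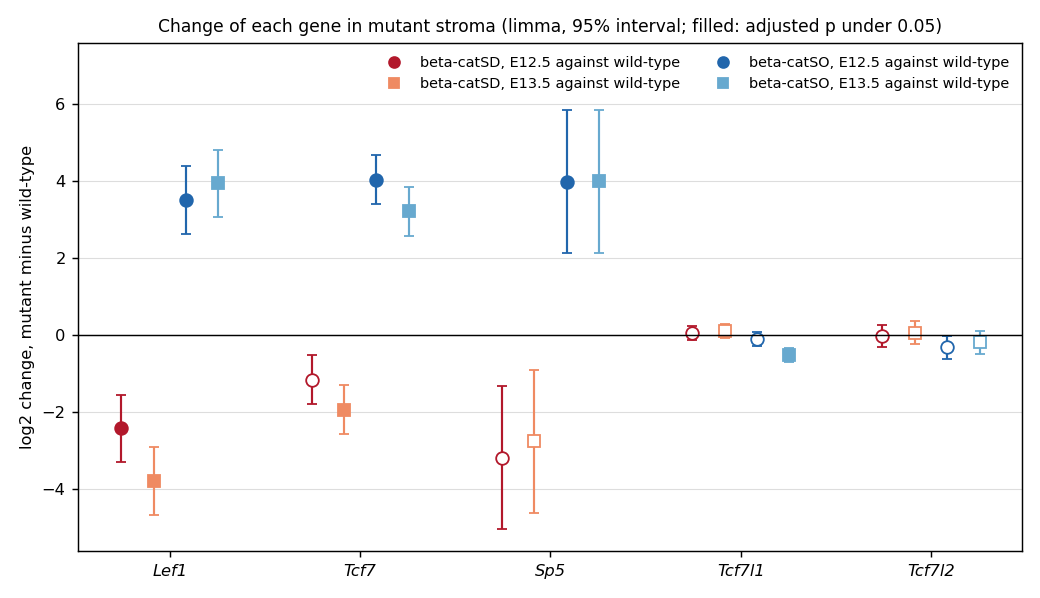
Log2 change of each gene, mutant minus wild-type of the same strain and stage, with its 95% interval from limma; filled symbols have an adjusted p below 0.05. Lef1 and Tcf7 lie below 0 in beta-catSD and above 0 in beta-catSO stroma, Sp5 does so with wide intervals, and of the other two only Tcf7l1 in beta-catSO stroma at E13.5 is filled.

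The change against wild-type differed between the mutants in a test of the difference itself, which does not by itself show opposite directions. The beta-catSO change minus the beta-catSD change, each against its own wild-type strain and averaged over stages, was 6.83 for Lef1 (adjusted p = 5.98e-11), 5.18 for Tcf7 (adjusted p = 2.87e-11) and 6.96 for Sp5 (adjusted p = 4.77e-06) on the log2 scale. Of 5 members 3 were called higher, beside 9.87% of all genes, and 1 lower, beside 8.05%. The lower one was Tcf7l1 at -0.38 (adjusted p = 0.00308), which was not called with the covariates (-0.34, adjusted p = 0.12). For Tcf7l2 the difference was -0.27 (95% interval -0.57 to 0.03, adjusted p = 0.215). Because line and strain go together, the difference between lines cannot be told apart from a strain difference in the response.

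Ordered from low to high, Lef1 ran from beta-catSD E13.5 and beta-catSD E12.5, whose libraries overlapped, through wild-type CD1 E13.5, wild-type CD1 E12.5 and wild-type C57BL/6 E12.5, which overlapped as neighbours, to wild-type C57BL/6 E13.5, beta-catSO E12.5 and beta-catSO E13.5, each clear of the group before it. For Tcf7 the beta-catSD groups also came first, but their libraries overlapped those of wild-type CD1 at E12.5. For Sp5 the 4 wild-type groups overlapped as neighbours and lay between the mutants, and the beta-catSO stages overlapped each other. For Tcf7l1 the only gap between neighbours lay above beta-catSO E13.5, the lowest group, and for Tcf7l2 every pair of neighbouring groups overlapped.

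Per length, the makeup of the TCF/LEF family differed between mutant and wild-type stroma. Reads were divided by the length of all annotated exons of a gene merged (8788 bases for Lef1, 2625 for Tcf7, 3924 for Tcf7l1 and 8775 for Tcf7l2), a measure that does not know which isoform was made. Tcf7l1 was the largest contributor in wild-type stroma, at group means of 23.6 to 28.5 RPKM (the CPM divided by this length in kilobases), against 3.67 to 4.91 for Tcf7l2. The share of Lef1 and Tcf7 in the sum of the 4 genes at E12.5 was 7.71, 7.93 and 3.10% in beta-catSD libraries, against 14.9, 15.3 and 14.4% in wild-type libraries. At E13.5 it was 4.58, 7.71 and 4.09% in beta-catSD libraries, against 22.3, 24.3 and 23.4% in wild-type libraries. No beta-catSD library reached a wild-type share. In beta-catSO libraries the share was 70.3, 66.3 and 69.5% at E12.5, against 13.2, 11.8 and 12.1% in wild-type libraries, and 74.0, 78.7 and 81.1% at E13.5, against 25.2, 16.6 and 17.1% in wild-type ones. Lef1 and Tcf7 thus made up most of the family's RNA per length in beta-catSO stroma and a minority in all other groups. The 25.2% came from the library that stood apart, and without it the wild-type mean was 16.9%. No test was made of these shares.

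The sum over the 4 genes was 83.6 ± 2.99 RPKM in beta-catSO stroma at E12.5 and 98.3 ± 11.0 at E13.5, against 32.5 ± 1.56 and 37.4 ± 5.41 in wild-type CD1 stroma (SD, n = 3 each). In beta-catSD stroma it was 35.4 ± 3.02 at E12.5 and 36.4 ± 1.61 at E13.5, against 37.9 ± 4.41 and 41.9 ± 0.99 in wild-type C57BL/6 stroma. The summed level was above every wild-type library in beta-catSO stroma. In beta-catSD stroma it was below every wild-type library in 2 of 3 libraries at E12.5, where the groups overlapped, and in all 3 at E13.5. Tcf7 was the largest contributor in beta-catSO stroma, at a mean of 38.6 RPKM at E12.5 and 52.6 at E13.5, ahead of Tcf7l1 at 22.2 and 18.2 and Lef1 at 18.8 and 24.2. That order rests on merged exons: over the longest transcript Lef1 led in beta-catSO stroma, at 45.2 at E12.5 and 58.2 at E13.5, with Tcf7 at 41.0 and 55.9. Sp5, over 2100 exon bases, had 12.9 and 16.4 on the same scale in beta-catSO stroma, against 0.848 and 1.04 in wild-type CD1 stroma.

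**Figure D3:**
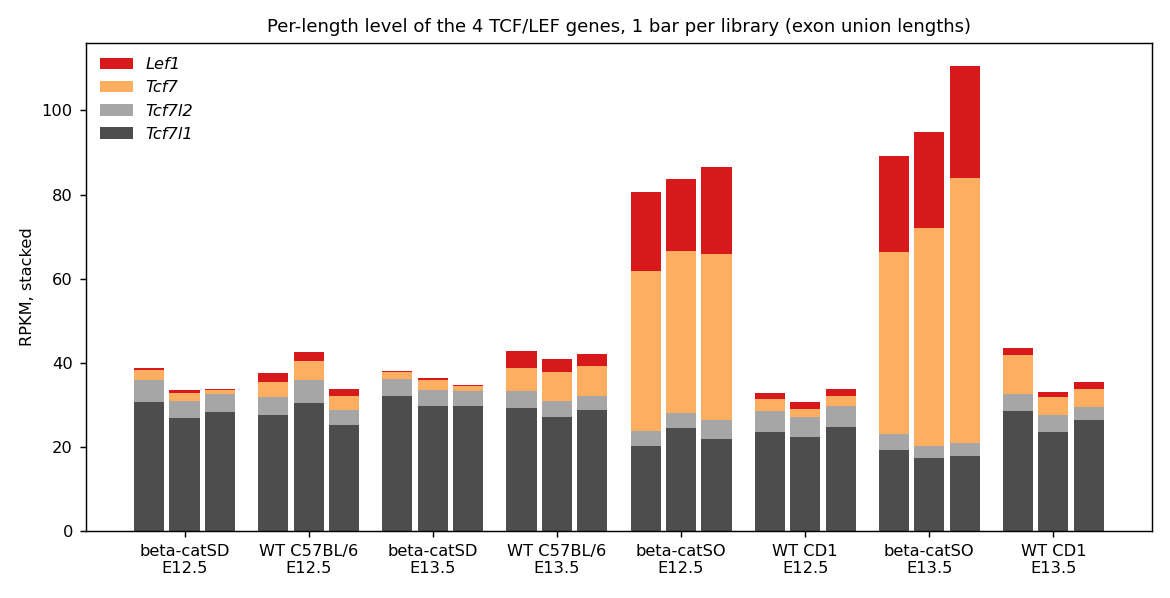
Stacked levels in RPKM of the 4 TCF/LEF genes, 1 bar per library, grouped by genotype and stage (vertical axis from 0). The Lef1 and Tcf7 segments make up 66.3 to 81.1% of the bar in beta-catSO libraries and 3.10 to 7.93% in beta-catSD libraries, and the Tcf7l1 segment is the largest in every wild-type library.

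Between stages of a genotype, a member was called in a single comparison, and limma with voom weights, from the recovered reads, added Lef1 in wild-type C57BL/6 stroma (0.77, adjusted p = 0.0371) and in beta-catSO stroma (0.36, adjusted p = 0.045). In wild-type C57BL/6 stroma Lef1 differed by 0.78 (adjusted p = 0.317) and Tcf7 by 0.80 (adjusted p = 0.147) on the log2 scale, E13.5 minus E12.5, without overlap, and 0 of 5 members passed, beside 3.96% of all genes (1 member had an unadjusted p below 0.05). In wild-type CD1 stroma Tcf7 rose by 1.25 (SE 0.31, adjusted p = 0.0189), the only one of 5 called higher, beside 2.42% of all genes. That call was lost when any of 3 libraries was left out, at 0.88 (adjusted p = 0.0864) without the wild-type E13.5 library that stood apart, and with the covariates (1.21, adjusted p = 0.0876). Tcf7l2 stood at -0.43 there (adjusted p = 0.0802), its E13.5 libraries all below its E12.5 libraries. Within beta-catSD stroma 0 of 5 members were called between stages, beside 0.275% of all genes (0 members at an unadjusted p below 0.05). Lef1 there was -0.59 (adjusted p = 0.666), and -1.44 (adjusted p = 0.0108) without E12.5 replicate 3. Within beta-catSO stroma 0 of 5 were called, beside 7.1% (2 members unadjusted), with Tcf7l1 nearest at -0.28 (adjusted p = 0.0518) and called without both libraries that stood apart (adjusted p = 0.0297) and with each library centred on its median (adjusted p = 0.0359).

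A stage by genotype term asked whether the mutant change differed between days. For the beta-catSD change, E13.5 minus E12.5, the values were -1.37 for Lef1 and -0.78 for Tcf7 (adjusted p = 0.89 for both) and 0.42 for Sp5. By limma 0 of 5 members and 0 of 13803 genes passed, or 0% of all genes, with 753 at an unadjusted p below 0.05, and by limma with voom weights also 0. The Lef1 term was -2.22 (adjusted p = 0.0234) without beta-catSD E12.5 replicate 3, the library with 6 Lef1 reads. For the beta-catSO change the terms were 0.43 for Lef1, -0.82 for Tcf7, 0.02 for Sp5 and -0.43 for Tcf7l1, the nearest to the threshold (adjusted p = 0.0863, and 0.0473 without wild-type CD1 E13.5 replicate 2), and 0 of 5 members passed, beside 1.33% of all genes (1 member unadjusted). Between the wild-type strains, C57BL/6 minus CD1, Lef1 differed by 0.19 at E12.5 and by 1.04 at E13.5 (adjusted p = 0.327), the C57BL/6 libraries all higher at E13.5. None of 5 members passed at E12.5, beside 0.543% of all genes, nor at E13.5, beside 0.42% (2 members and 1 member at an unadjusted p below 0.05).

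Among 21 measured coregulators of TCF/LEF, fixed as a list of 22 symbols of which Tle5 is a newer name of Aes, changes were mixed in direction. Over both stages 4 were higher and 2 lower in beta-catSD stroma, with a median log2 change of 0.03, where 3.46% of all genes were higher and 3.71% lower, with a median of 0.00. Tle1 (0.38, adjusted p = 0.00054) and Tle2 (0.55, adjusted p = 0.00227), co-repressors of the Groucho family, were higher, while their relative Tle3 (-0.35, adjusted p = 0.00172) and the co-repressor Ctbp2 (-0.49, adjusted p = 0.000906) were lower. In beta-catSO stroma 3 were higher and 2 lower, beside 10.2% and 8.32% of all genes, with a median of -0.01. Tle1 rose there too, by 0.97 (adjusted p = 1.31e-10), as did Ctbp2 by 0.42 (adjusted p = 0.00124), whereas Tle2 fell by 0.63 (adjusted p = 0.000177) and Aes, a short Groucho protein, fell by 0.50 (adjusted p = 3.55e-07). With the covariates, the beta-catSD calls of Tle1, Tle2 and Ctbp2 and the beta-catSO call of Tle2 were lost.

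Of 21 Wnt target genes fixed as a list, 18 were measured. In beta-catSO stroma 12 were higher and 1 lower over both stages, beside 10.2% and 8.32% of all genes, with a median of 2.06. The smallest p-values belonged to Apcdd1, a membrane inhibitor of Wnt (4.61, adjusted p = 2.25e-17), Nkd1 (3.03, adjusted p = 5.1e-17) and Nkd2 (3.94, adjusted p = 7.84e-15), which bind Dishevelled, and Axin2, a part of the beta-catenin destruction complex (3.60, adjusted p = 6.63e-17). In beta-catSD stroma 6 were lower and 4 higher, beside 3.71% and 3.46% of all genes, with a median of -0.22. Axin2 (-1.02, adjusted p = 2.06e-06), Apcdd1 (-0.99, adjusted p = 2.09e-05) and Tnfrsf19, a receptor of the TNF family (-1.80, adjusted p = 0.000285), fell and Dkk1, a secreted Wnt inhibitor, rose (0.96, adjusted p = 0.00027). The Dkk1, Tnfrsf19 and Nkd2 calls in beta-catSD stroma were lost with the covariates (adjusted p = 0.273, 0.0676 and 0.164), and those of Nkd1 and Nkd2 with voom weights (adjusted p = 0.232 and 0.223). By stage in beta-catSD stroma, 1 was higher and 4 lower at E12.5, beside 0.985% and 0.732% of all genes, and 2 higher and 3 lower at E13.5, beside 1.33% and 2.07%. In beta-catSO stroma 10 were higher and 2 lower at E12.5, beside 5.17% and 3% of all genes, and 9 higher and 0 lower at E13.5, beside 8.53% and 6.83%.

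Among the other genes of the Sp family, a single call was made. Of 6 measured among 8 listed, 0 were called in beta-catSD stroma over both stages, where Sp7, an osteoblast factor, had the smallest p-value (0.96, adjusted p = 0.13). In beta-catSO stroma 1 was called, Sp7 at 3.06 (adjusted p = 1.49e-06), and the median log2 change over the 6 was 0.01 there and 0.04 in beta-catSD stroma. Sp1, the broadly expressed founder of the family, changed by 0.05 in beta-catSD stroma and Sp3 by 0.05 in beta-catSO stroma, neither called.

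**Figure D4:**
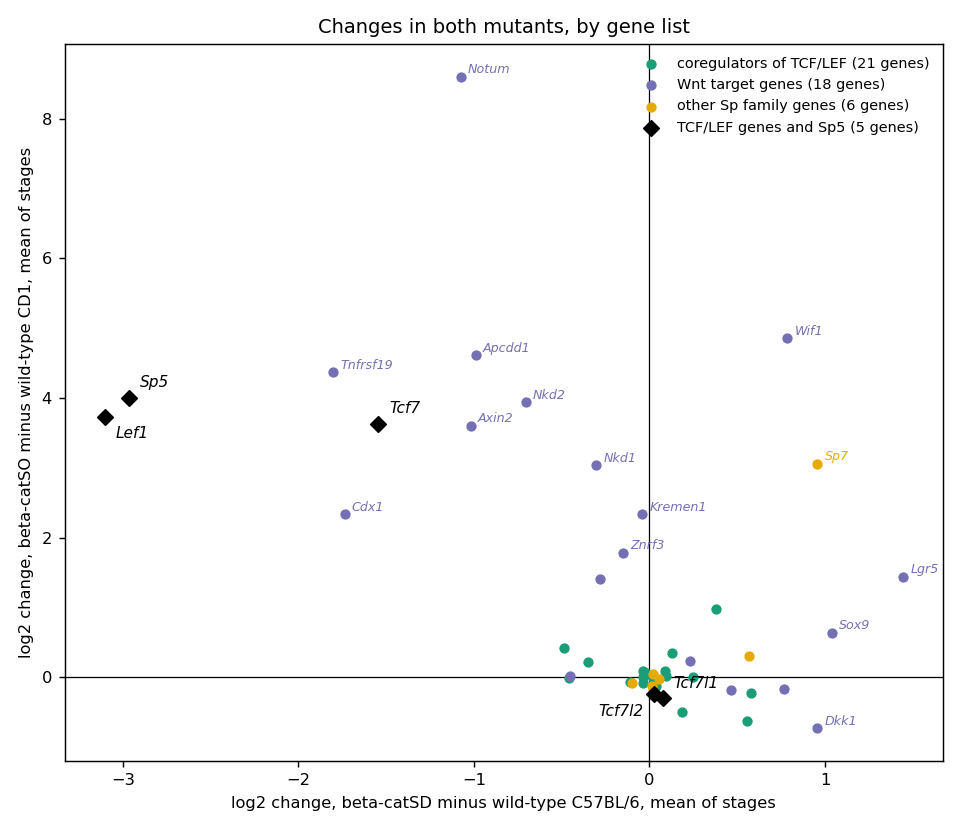
Log2 change averaged over stages in beta-catSD stroma (horizontal axis) and beta-catSO stroma (vertical axis), each against its wild-type strain, for the 4 TCF/LEF genes and Sp5 (diamonds), 21 coregulators, 18 Wnt target genes and 6 other Sp genes. Lef1, Sp5 and Tcf7 lie at the upper left with Axin2, Apcdd1 and Tnfrsf19, and most coregulators lie near the centre.

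Genes whose levels ran most like those of a member were found by Pearson r of log2 CPM over the 24 libraries, among 12201 named genes with a mean above 0 log2 CPM. These r are descriptions, since libraries of a group share genotype, strain and stage. The genes were picked by their levels in these same libraries. The genotype changes and p-values given for them follow largely from that choice and are not independent tests. Nearest to Tcf7 were Pdgfc, a PDGF ligand (r = 0.981), and the Wnt targets Axin2 (0.971) and Apcdd1 (0.951), and farthest was Shc1, an adaptor protein (-0.959). Nearest to Lef1 were Pdgfc (0.959), Lgr4, a receptor for R-spondins (0.948), and Tmtc4 (0.947), and farthest was Tmem132e (-0.957). Over both stages Pdgfc changed by -1.11 in beta-catSD stroma (adjusted p = 0.000142) and by 2.20 in beta-catSO stroma (adjusted p = 8.35e-10). Lgr4 changed by -0.82 in beta-catSD (adjusted p = 1.62e-07) and by 1.06 in beta-catSO stroma (adjusted p = 1.92e-10). Tmem132e changed the other way, by 1.67 in beta-catSD (adjusted p = 3.32e-07) and by -1.26 in beta-catSO stroma (adjusted p = 2.13e-06).

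Nearest to Sp5 were Atp2b1, a calcium pump of the plasma membrane (0.929), Man1a, a mannosidase of glycan processing (0.914), and Glrb, the beta subunit of the glycine receptor (0.908), and farthest was Cdkn1c, a cell cycle inhibitor (-0.886). Nearest to Tcf7l1 were Polr2m (0.894), the forkhead factor Foxd2 (0.889) and Aes (0.887), and farthest was Nfatc2 (-0.918). Foxd2, picked in the same way, changed by 0.61 in beta-catSD stroma (adjusted p = 0.000284) and by -0.81 in beta-catSO stroma (adjusted p = 1.22e-06). Tcf7l2 had the weakest neighbours, Zmiz1 (0.837), the HMG-box factor Hbp1 (0.810) and Flrt1 (0.799), and farthest was Racgap1, a protein of cell division (-0.838).

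Among the members themselves, Lef1 and Tcf7 had an r of 0.942, Lef1 and Sp5 0.880, and Tcf7 and Sp5 0.861 over the 24 libraries. Tcf7l1 ran against them, at -0.778 with Lef1, -0.741 with Tcf7 and -0.803 with Sp5. Within groups, as deviations from the group means, Lef1 and Tcf7 still ran together (0.641), whereas Sp5 did not run with Lef1 (-0.0987) or Tcf7 (-0.127). Tcf7l1 did not run against Lef1 (0.0362) or Tcf7 (0.343) within groups, while with Sp5 it stood at -0.366. These within-group values rest mostly on the groups whose libraries spread most. For Lef1 and Sp5 these were the beta-catSD groups at E12.5 and E13.5, with an SD of 1.47 and 0.68 for Lef1 and 2.58 and 1.97 for Sp5. Read counts there were low, down to 6 for Lef1 and 0 for Sp5. Whether the within-group values hold without these groups was not tested.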

How the data were processed

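RNA of sorted stromal cells from embryonic mouse kidney was measured by sequencing in 24 libraries. Per the submitters' processing notes HISAT2, HTSeq, limma and the mm10 build were used, with no versions or roles given. The authors deposited log2 CPM values with TMM scaling and 0.5 added per count, for 13803 genes, per the file headers and the values. Which genes they filtered out, by which annotation and on which strand reads were counted is not given in the sources used here. Each value gave a whole number of reads within 0.1 for 100% of values, so depths of 6184257 to 21168300 reads were recovered, and 0 columns of the table lacked a sample.

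Groups were fitted as 8 means in limma 3.58.1 (R 4.3.3) with a trended prior (16 residual and 6.43 prior degrees of freedom), with Benjamini-Hochberg adjustment over 13803 genes, a threshold of 0.05 and 15 contrasts. A filter of 3 libraries above 0 log2 CPM removed 0 genes. Fold changes are on the scale of log2 CPM with 0.5 added per count. Read ratios sum the recovered reads of a group. GENCODE M21 matched 13678 symbols (99.1%), and RefSeq windows matched all 5 members (10 windows). Python 3.11.15 and matplotlib 3.10.9 made the plots.

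Named genes were the 5 members, the 3 genes of highest and the 1 gene of lowest correlation with each, the 4 smallest p-values of each list, and Ctnnb1 and Foxd1. The members, lists and tests were chosen with earlier results of these data known. Alternatives were voom weights on the recovered reads, 2 reads added, other scalings and filters, the 12 libraries of a line, a replicate block, marker covariates, and each library left out in turn. Leaving out both libraries that stood apart was chosen after seeing the data. The fits were tested on simulated data.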

Additional observations from a re-analysis of the deposited data

How the results depend on the processing

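Over the 20 member results in the 4 comparisons of genotype within a stage, 192 of 200 values under the alternatives and 114 of 120 with a library left out kept their direction and their side of the threshold. The cause of the other changes was not tested unless fewer libraries or added terms show it. Sp5 had 9 to 79 summed reads per group outside beta-catSO stroma.

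With voom weights, Tcf7l2 and Foxd1 at E12.5 in beta-catSD stroma were 0.018 and 0.0073, the Sp5 stage term of beta-catSO was -0.11 and the Tcf7 stage change in beta-catSD was -0.16. Calls were 193 (beta-catSD E13.5), 643 (beta-catSD, both stages), 122 (strains, E12.5) and 37 (strains, E13.5). With 2 reads added, Sp5 at E12.5 in beta-catSD was called at -2.33. With the 12 libraries of a line, calls between stages were 262 in wild-type C57BL/6 and 1 in beta-catSD. With each library centred on its median, the Sp5 stage term of beta-catSO was -0.0023 and its E13.5 strain difference 0.015, and without TMM the Tcf7l2 E13.5 strain difference was -0.022. With the longest transcript as length, the Lef1 and Tcf7 share was 15.5% and 24.5% in wild-type C57BL/6 and 13.4% in wild-type CD1 at E12.5.

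With the marker covariates, calls were 177 (beta-catSD E13.5), 580 and 1345 (beta-catSO E12.5 and E13.5), 357 and 1431 (both stages, beta-catSD and beta-catSO), 1 (beta-catSD stage term), 1431 (beta-catSO minus beta-catSD), 223, 353, 82 and 358 (stages in wild-type C57BL/6, wild-type CD1, beta-catSD and beta-catSO) and 7 (strains, E12.5). Sp5 in beta-catSO was 3.52 and 2.66, no longer called. Tcf7l2 in beta-catSD was 0.0059, -0.12 and, over both stages, -0.055, with a stage term of -0.12, and Tcf7l1 had a stage term of -0.027 and a beta-catSD stage change of -0.0041. Foxd1 at E13.5 in beta-catSD was -0.25, Ctnnb1 at E13.5 in beta-catSO 0.026, Sp3 in beta-catSD -0.10 and Sp6 in beta-catSO -0.45. The Sp5 stage term of beta-catSO was -0.86 and its stage change -0.28, the Tcf7 stage change in beta-catSD -0.23, and strain differences were -0.20 (Lef1, E12.5), -0.017 (Tcf7l2, E13.5) and 0.038 (Sp5, E13.5).

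Without both libraries that stood apart, calls were 357 (beta-catSD E12.5), 28 and 606 (stage terms of beta-catSD and beta-catSO), 173 (beta-catSD stages), 558 and 37 (strains, E12.5 and E13.5). Tcf7 at E12.5 in beta-catSD was called at -1.24. Tcf7l1 there was -0.018, Tcf7l2 in beta-catSD over both stages -0.037 and Sp3 in beta-catSO -0.0070. Stage changes in wild-type C57BL/6 were -0.032 (Tcf7l1) and 0.18 (Sp5), and the Sp5 strain difference at E13.5 was 0.16.

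With a library left out in turn, calls ran over 92 to 395 (237 with all; beta-catSD E12.5), 244 to 370 (469; E13.5), 720 to 883 (1127; beta-catSO E12.5), 0 to 23 (0) and 61 to 532 (183) for the beta-catSD and beta-catSO stage terms, 83 to 605 (546), 290 to 785 (748), 0 to 154 (38) and 356 to 880 (980) for stages in wild-type C57BL/6, wild-type CD1, beta-catSD and beta-catSO, and 18 to 459 (75) and 28 to 86 (58) for strains at E12.5 and E13.5. In beta-catSD at E12.5, Tcf7 ran over -1.42 to -0.76, Sp5 over -4.12 to -1.70, Tcf7l1 over -0.018 to 0.12, Tcf7l2 over -0.14 to 0.14 and Foxd1 over -0.12 to 0.069. Over both stages in beta-catSD, Tcf7l2 ran over -0.037 to 0.10, Sp2 over -0.053 to 0.057, Sp3 over -0.00073 to 0.047 and Sp6 over -0.0073 to 0.95, and in beta-catSO Sp1 ran over -0.087 to 0.024 and Sp3 over -0.0070 to 0.075. Stage terms of beta-catSD ran over -1.05 to 1.53 (Sp5), -0.019 to 0.12 (Tcf7l1) and -0.070 to 0.21 (Tcf7l2), and that of Sp5 in beta-catSO over -0.35 to 0.45. Stage changes ran over -0.032 to 0.11 (Tcf7l1) and -0.46 to 0.24 (Sp5) in wild-type C57BL/6, -0.16 to 0.048 (Lef1) and -0.11 to 0.69 (Sp5) in wild-type CD1, and -1.14 to 1.44 (Sp5) and -0.37 to 0.29 (Tcf7) in beta-catSD. Strain differences ran over -0.035 to 0.63 (Sp5, E12.5), -0.11 to 0.11 (Tcf7l2, E13.5) and -0.39 to 0.31 (Sp5, E13.5).

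The replicate numbers showed no pairing across all comparisons: deviations of same-numbered libraries had an r of -0.143 to 0.276, over 0.1 in 2 of 12 pairs, and 5 mutant libraries correlated best with their own number. In beta-catSD stroma at E12.5 each mutant library did so, at an r of 0.198, 0.0715 and 0.276. Whether those libraries were paired cannot be told from these values. With the replicate block the beta-catSD stage term had 1 call, against 0 without it. The block could not be fitted for stages and strains within a genotype, nor the 12 libraries of a line for comparisons across lines.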
